A study of Mus musculus with 4 samples.

Results

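Solute carriers are membrane transporters that move small molecules across the cell surface and the membranes of organelles. The genes described here were 138 of the 323 solute carrier genes named with the letter a (symbols of the form Slc, a family number, a and a member number) that had a measured level, among 19938 genes in all. A gene was taken when its mean level over the 4 arrays was at or above 6.36 on the log2 scale, the median of all genes, each gene standing on its brightest probe set. Of 17 well known carriers set aside by name, among them those of choline, iron, glucose and lactate, 16 were measured and 13 lay at or above the level threshold. The mean level and the names set aside therefore chose the members, with earlier results of these data known. A mean over all arrays also lets in a gene that is bright in 1 genotype alone.

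Whole marrow RNA of C57BL/6 mice with leukemia was read on MoGene-1_0-st-v1 arrays. All marrows carried MLL-AF9, an oncogenic fusion that causes acute myeloid leukemia, and no leukemia-free marrow was among them. The 2 groups were MLL-AF9/Hes1-/- marrow, labelled Hes1 null, and MLL-AF9/Hes1+/+ marrow, labelled wild type, with 2 arrays each. Hes1 encodes a transcriptional repressor induced by Notch signalling, and the comparison asks what its loss changes in this leukemia. The labels give no age or disease stage, do not say how the leukemias were raised, and do not say whether arrays came from separate animals, so p-values measure the spread between these samples, which may be technical. Levels are log2 values of the deposited linear RMA intensities, each difference is a log2 value, the Hes1-null mean less the wild-type mean, given ± its standard error (SE) with n = 2 in each genotype, and p-values come from limma's moderated test over all genes.

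Solute carriers are grouped by substrate into numbered families. Plasma membrane carriers bring in amino acids, sugars, nucleosides, vitamins, metals and anions; the Slc25 family exchanges metabolites, nucleotides and cofactors across the inner mitochondrial membrane, and Slc35 carriers load nucleotide sugars into the endoplasmic reticulum and Golgi for glycosylation. In dividing leukemic and marrow cells such carriers supply nutrients for biosynthesis, and in phagocytes several work in lysosomes. The array reads transcript level only and says nothing about transport.

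Several features of the arrays touch every value below. Hes1 itself lay at 5.43 and 5.84 on the Hes1-null arrays and at 5.59 and 5.79 on the wild-type arrays (difference -0.06 ± 0.18, adjusted p = 0.968), and the labels do not say whether its probe set lies in the deleted part, so it does not check the genotype labels. Hes1-null replicate 2 stood apart in Xist, the noncoding RNA of X inactivation, named here after its values were seen. It lay at 11.73 and 7.25 on the Hes1-null arrays, against a lower wild-type value of 11.82. Across genes the Hes1-null arrays correlated at r = 0.982 and the wild-type arrays at r = 0.995, as a description. Marker genes listed for marrow cell types and immediate early genes also differed, and the lists do not tell leukemic from other cells. Of 10 neutrophil markers measured, 8 were lower in Hes1-null marrow without overlap, and their summed linear intensity was 13790 to 14613 in Hes1-null and 29217 to 34917 in wild-type marrow. Of 8 monocyte and macrophage markers measured, 7 were lower and 1 was higher without overlap, with sums of 8014 to 8247 in Hes1-null and 13151 to 13919 in wild-type marrow. Immediate early genes were higher, 12 of 13 without overlap, with sums of 11966 to 19091 in Hes1-null and 4094 to 4646 in wild-type marrow. Of 6 megakaryocyte markers measured, 5 were lower without overlap, with sums of 606 to 607 in Hes1-null and 1093 to 1106 in wild-type marrow. Of 10 stromal and endothelial markers, 6 were lower without overlap, with sums of 963 to 1243 in Hes1-null and 2411 to 2656 in wild-type marrow. Of 7 T and NK cell markers, 6 were lower without overlap, with sums of 293 to 438 in Hes1-null and 615 to 928 in wild-type marrow. The B cell and mast cell lists had 1 of 7 and 1 of 6 lower without overlap, and 1 B cell marker higher. None of these markers was at 0 on any array, which does not show expression. Below the level threshold lay 2 of the 6 megakaryocyte, 5 of the 10 stromal and endothelial and 5 of the 7 T and NK cell markers. So did 6 of the 7 B cell and 3 of the 6 mast cell markers, and probe sets this dim may be near background. Of all genes at or above that threshold, 20.5% were lower without overlap and 22.9% were higher. The part of these markers in the results below was not tested.

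None of the 138 members passed the test over all genes. Of the 16 measured carriers set aside by name, 1 did, and it lay above the level threshold. The count of 0 members passing therefore depends on the names set aside. By limma, 0 of 138 had an adjusted p under 0.05, where 0.145% of all genes and 0.181% of genes at or above the same level did. At an unadjusted p under 0.05 there were 13 members (9.42%), 6 higher and 7 lower in Hes1-null marrow, beside 8.29% of all genes and 11.2% of genes at or above the level threshold. The members' share was thus between those backgrounds. By direction, the 6 higher members were 4.35%, beside 5.06% of equally bright genes, and the 7 lower members 5.07%, beside 6.12%. The median difference over the members was -0.05, beside -0.02 over all genes and -0.01 over genes at or above the threshold, and 116 members (84.1%) lay within 0.5 of 0, beside 87.0% of those genes. The genotypes did not overlap for 58 members (42.0%, beside 38.0% of all genes and 43.5% of equally bright genes). Of these, 22 were higher in Hes1-null marrow (15.9%, beside 22.9% of equally bright genes) and 36 were lower (26.1%, beside 20.5%). The lower side was the larger one among the members and the smaller one among equally bright genes, and this contrast was not tested. Over all genes the lower side was also the larger, with 4106 lower and 3472 higher. After centring the arrays on their median, the members without overlap were 27 higher and 31 lower. Only 5 members were at least 2-fold apart without overlap, 2 higher and 3 lower in Hes1-null marrow (1.45% and 2.17%, in all 3.62%, beside 3.22% of equally bright genes). Of the 138, 7 had a Hes1-null mean and 2 a wild-type mean below the threshold, so that they passed through the brighter genotype. Slc9a7, Slc28a2 and Slc43a1, described next, are among these 9.

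The unadjusted counts rested on the arrays used. Without Hes1-null replicate 1 there were 17 higher and 42 lower members, and without Hes1-null replicate 2 there were 22 higher and 10 lower. Without wild-type replicate 1 there were 3 higher and 7 lower, and without wild-type replicate 2 there were 2 higher and 4 lower. Among equally bright genes the same 4 settings gave 42.5%, 23.5%, 4.56% and 4.34% in either direction, against 42.8%, 23.2%, 7.25% and 4.35% of the members.

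**Figure D1:**
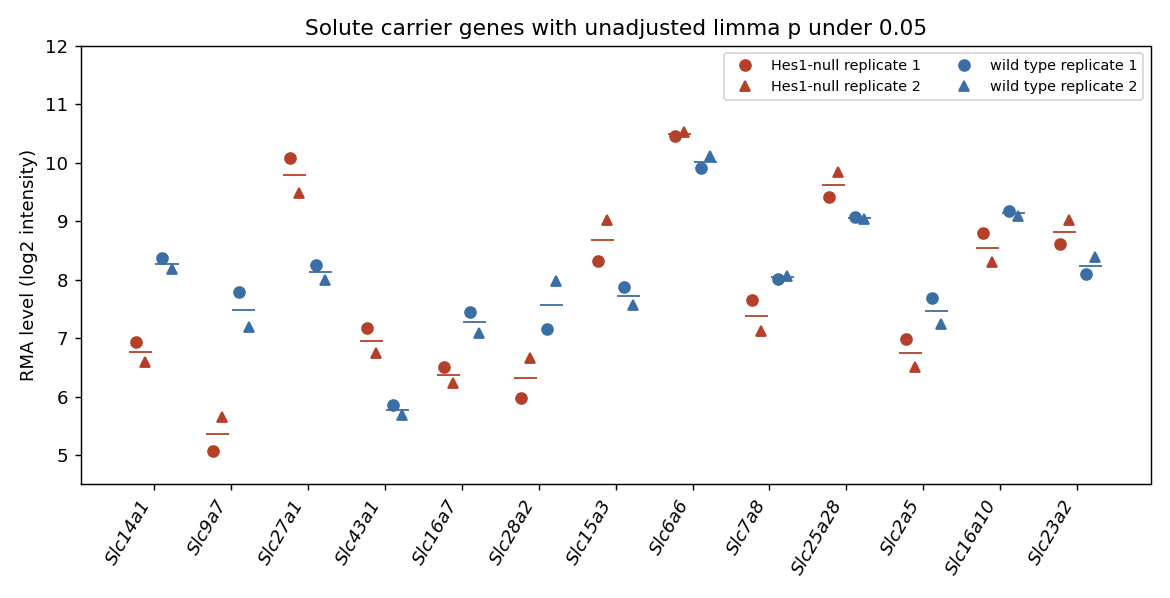
RMA level (log2 intensity, vertical axis) on each array for the 13 members with an unadjusted limma p under 0.05, in order of p. Red symbols are the Hes1-null arrays and blue symbols the wild-type arrays, circles are replicate 1 and triangles replicate 2, and short lines are genotype means. For all 13 genes shown the 2 genotypes did not overlap, although none passed the adjusted threshold.

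Slc14a1 had the smallest p. It encodes the urea transporter of red cells and of kidney vessels. It lay at 6.93 and 6.59 on the Hes1-null arrays and at 8.36 and 8.18 on the wild-type arrays. Both Hes1-null arrays were low by a wide margin and the genotypes did not overlap. The difference was -1.51 ± 0.19 (2.85-fold lower in Hes1-null marrow, adjusted p = 0.0916 by limma). Of 7 measured erythroid markers 1 was lower without overlap and 6 overlapped, and their sums were 630 and 649 on the Hes1-null arrays and 807 and 659 on the wild-type arrays, but 4 of the 7 (Epor, Ermap, Klf1 and Rhag) lay below the level threshold. The stromal and endothelial sums given above were also lower in Hes1-null marrow. Their part in the result was not tested. In whole marrow fewer cells of a type and less RNA per cell cannot be told apart, here and for every gene that follows.

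Slc9a7 encodes a sodium and potassium for proton exchanger of the trans-Golgi network, and it had the largest difference among the members in either direction. It lay at 5.07 and 5.64 on the Hes1-null arrays and at 7.79 and 7.18 on the wild-type arrays. The Hes1-null arrays lay below the level at which a gene counted as expressed, and the wild-type arrays above it. The difference was -2.13 ± 0.29 (4.37-fold lower, adjusted p = 0.102 by limma). Leaving out single arrays gave values between -2.43 and -1.82. The gene is X-linked, like Slc25a5, Slc25a43 and Slc35a2 among the members. Both Hes1-null arrays were low, and their Xist levels differed. Any link between Xist and the Slc9a7 difference was not tested. The other Golgi and endosomal exchangers differed less: Slc9a8 by 0.02 ± 0.16 and Slc9a9 by -0.08 ± 0.21, both with overlapping arrays.

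Slc27a1 had the largest positive difference. It encodes fatty acid transport protein 1, which takes up long-chain fatty acids and couples them to coenzyme A. It lay at 10.09 and 9.49 on the Hes1-null arrays and at 8.26 and 7.998 on the wild-type arrays. Both Hes1-null arrays were the brighter ones by more than 1 log2 unit. The difference was 1.66 ± 0.25 (3.16-fold higher, adjusted p = 0.136 by limma), between 1.36 and 1.96 with each array left out. Its relative Slc27a4 lay at 7.96 and 7.86 on the Hes1-null arrays and at 7.82 and 8.55 on the wild-type arrays, which overlapped (-0.27 ± 0.27).

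Slc43a1 encodes LAT3, a facilitative carrier of branched-chain and other large neutral amino acids that works without a heavy chain. It lay at 7.17 and 6.74 on the Hes1-null arrays and at 5.86 and 5.68 on the wild-type arrays. The wild-type arrays were below the level threshold, so the gene became a member through its Hes1-null levels. The difference was 1.19 ± 0.19 (2.28-fold higher, adjusted p = 0.156 by limma). Its paralogs had overlapping arrays, Slc43a2 at 0.02 ± 0.16 and Slc43a3, which carries purine nucleobases, at -0.15 ± 0.25.

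Slc28a2 encodes the sodium-driven purine nucleoside carrier CNT2. It lay at 5.98 and 6.66 on the Hes1-null arrays and at 7.15 and 7.97 on the wild-type arrays. Replicates were far apart in both genotypes, which did not overlap. The difference was -1.24 ± 0.35 (2.37-fold lower, adjusted p = 0.426 by limma) and ranged between -1.65 and -0.83 with each array left out. Slc16a7, which encodes the high-affinity pyruvate and lactate carrier MCT2, lay at 6.50 and 6.23 on the Hes1-null arrays and at 7.45 and 7.10 on the wild-type arrays. Its arrays were tighter and did not overlap, with a difference of -0.90 ± 0.20 (1.87-fold lower, adjusted p = 0.263 by limma).

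Hes1 binds DNA at the N box, CACNAG, and at class C sites, CACGNG, so the 250 bases before the transcription start were read for 4 of the 6 members with the smallest p, as RefSeq gives them for build GRCm38.p6. Each of the 4 genes differed by more than 1 log2 unit. The other members among the 6, Slc14a1 and Slc16a7, are named only. The sequences are given 5′ to 3′ on the gene's strand with each match on either strand in capitals, and a palindromic match counted once. Positions are those of the match's first base before the start.
Slc9a7, chrX:20291828-20292077, minus strand: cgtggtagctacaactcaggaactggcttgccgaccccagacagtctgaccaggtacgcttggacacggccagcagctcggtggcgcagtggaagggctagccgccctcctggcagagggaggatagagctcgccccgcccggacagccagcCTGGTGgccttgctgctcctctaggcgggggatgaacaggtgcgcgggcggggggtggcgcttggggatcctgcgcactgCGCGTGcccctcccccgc
Slc27a1, chr8:71568621-71568870, plus strand: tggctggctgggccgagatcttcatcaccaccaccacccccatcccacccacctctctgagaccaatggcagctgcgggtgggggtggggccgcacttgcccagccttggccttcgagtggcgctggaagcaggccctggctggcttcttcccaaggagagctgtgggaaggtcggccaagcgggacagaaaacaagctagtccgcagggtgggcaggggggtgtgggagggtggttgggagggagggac
Slc43a1, chr2:84840073-84840322, plus strand: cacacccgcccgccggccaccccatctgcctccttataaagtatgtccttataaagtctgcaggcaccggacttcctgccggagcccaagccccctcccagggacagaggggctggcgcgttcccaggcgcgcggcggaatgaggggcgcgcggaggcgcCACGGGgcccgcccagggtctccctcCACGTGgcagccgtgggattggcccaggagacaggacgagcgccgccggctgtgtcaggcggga
Slc28a2, chr2:122426185-122426434, plus strand: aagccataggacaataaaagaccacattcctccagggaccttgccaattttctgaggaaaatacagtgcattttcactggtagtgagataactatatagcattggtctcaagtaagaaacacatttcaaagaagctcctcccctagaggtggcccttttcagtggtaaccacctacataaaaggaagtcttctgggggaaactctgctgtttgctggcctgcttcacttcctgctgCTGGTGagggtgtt
Slc43a1 held 2 class C matches, at -90 and -64. Slc9a7 held 1 N box match at -98 and 1 class C match at -18, and Slc28a2 held 1 N box match at -14. The first of 3 windows of Slc27a1 held neither. Over the first window of each gene, the N box letters were found in 36.7% of 27025 genes with a window, measured here or not. They were found in 35.2% of 8090 genes at or above the level threshold and in 35.8% of the 109 members with a window. Class C letters were found in 23.7%, 36.3% and 42.2% of the same sets. A match is a description of the letters and not a bound site.

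By substrate class, no class median lay more than 0.505 from 0, and every class held genes on both sides of 0. The class medians run from -0.50 for the 6 carboxylate carriers to 0.05 for the 34 mitochondrial carriers. They are descriptions without a test, and the classes were assigned by family with earlier results of these data known.

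**Figure D2:**
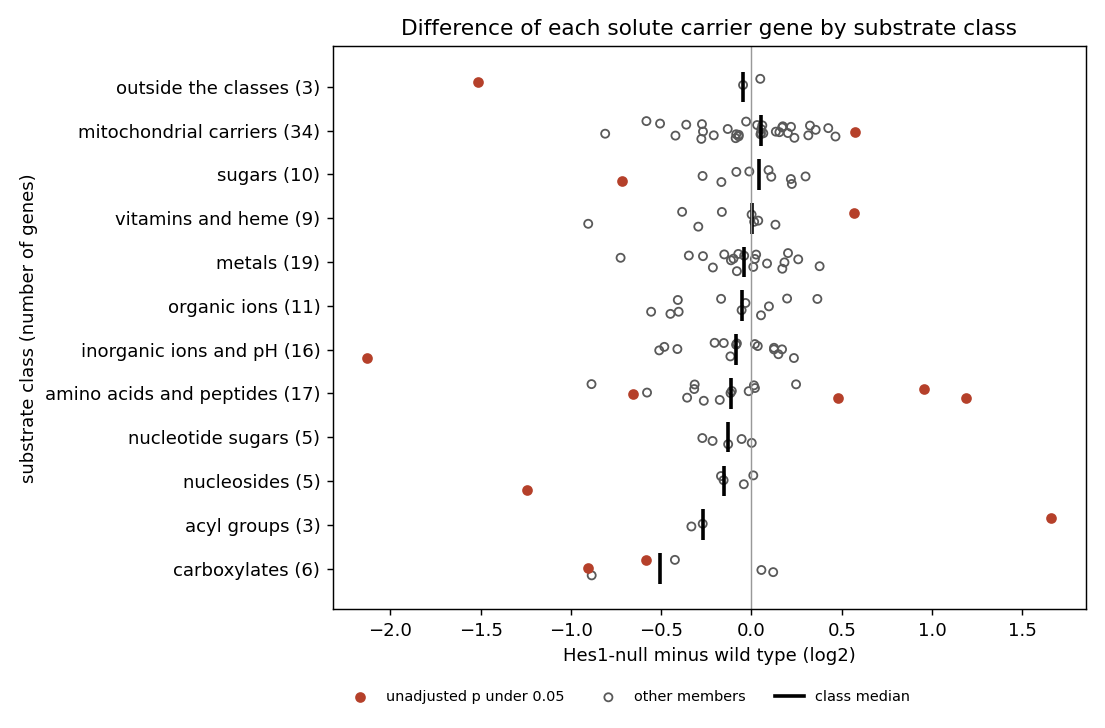
Difference of each of the 138 expressed solute carrier genes (Hes1-null minus wild type, log2, horizontal axis) by substrate class, with the number of genes in brackets and classes ordered by median. Filled points had an unadjusted limma p under 0.05, open points did not, and black bars are class medians; most genes lie within 0.5 of 0 and the filled points are spread over most classes.

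Carboxylate carriers lay lowest as a class, with a median of -0.50, but the spread between arrays was as large. Besides Slc16a7, the aromatic amino acid carrier gene Slc16a10 lay at 8.80 and 8.31 on the Hes1-null arrays and at 9.18 and 9.09 on the wild-type arrays, without overlap (-0.59 ± 0.22, adjusted p = 0.573 by limma). Slc16a13, a member of the monocarboxylate carrier family, lay at 8.32 and 6.91 on the Hes1-null arrays and at 8.60 and 8.40 on the wild-type arrays. Only Hes1-null replicate 2 was far below the rest there (-0.88 ± 0.46). Slc16a6 differed by 0.12 ± 0.17, and the citrate carrier gene Slc13a5 and the dicarboxylate carrier gene Slc13a3 by -0.42 ± 0.36 and 0.06 ± 0.39, all with overlap. The class median was -0.12 on Hes1-null replicate 1 and -0.80 on Hes1-null replicate 2, each set against the wild-type mean.

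Of the 17 amino acid and peptide carriers, 3 were higher and 1 lower at an unadjusted p under 0.05. Among equally bright genes 5.06% were higher and 6.12% lower at that p. The class median was -0.12, or -0.22 with a gene's probe sets averaged. Slc15a3, which encodes a lysosomal histidine and peptide transporter of immune cells, lay at 8.32 and 9.03 on the Hes1-null arrays and at 7.87 and 7.56 on the wild-type arrays. The genotypes did not overlap, and Hes1-null replicate 2 was the highest (0.96 ± 0.28, adjusted p = 0.451 by limma). Its paralog Slc15a4, which has the same lysosomal role, differed by -0.02 ± 0.17 with overlap. The taurine transporter gene Slc6a6 lay at 10.46 and 10.53 on the Hes1-null arrays and at 9.91 and 10.12 on the wild-type arrays. This was a small difference with close replicates (0.48 ± 0.15, adjusted p = 0.464 by limma). Slc7a8 encodes the LAT2 light chain, which carries neutral amino acids together with the heavy chain Slc3a2. It lay at 7.66 and 7.12 on the Hes1-null arrays and at 8.01 and 8.07 on the wild-type arrays, without overlap (-0.65 ± 0.23, adjusted p = 0.540 by limma).

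For several other carriers of the class the arrays overlapped. Slc7a7 and Slc7a6 encode the y+LAT1 and y+LAT2 light chains, which exchange cationic for neutral amino acids. Slc7a7 lay at 8.52 and 7.18 on the Hes1-null arrays and at 8.49 and 8.36 on the wild-type arrays. Slc7a6 lay at 9.97 and 8.57 on the Hes1-null arrays and at 9.54 and 9.52 on the wild-type arrays. In both, Hes1-null replicate 2 alone was low. The glutamine carrier gene Slc1a5 lay at 10.56 and 9.72 on the Hes1-null arrays and at 10.46 and 10.53 on the wild-type arrays (-0.36 ± 0.29). The 5 Slc38 genes among the members, whose family carries glutamine and other small neutral amino acids, had differences between -0.18 and 0.25, with Slc38a10 lower without overlap (-0.18 ± 0.16). Among the others were Slc38a1 at -0.12 ± 0.17 and the lysosomal arginine sensor gene Slc38a9 at -0.11 ± 0.22. Each had a dimmer second probe set, at -0.43 with overlap for Slc38a1 and at -0.33 without overlap for Slc38a9. The lysosomal proton-driven carrier gene Slc36a1 lay lower without overlap by a small amount (-0.31 ± 0.15).

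The 34 Slc25 mitochondrial carriers were the largest class and were centred near 0, with a median of 0.05, quartiles of -0.19 and 0.19, and 19 genes above and 15 below 0. Of these 34, 1 had an unadjusted p under 0.05. This was Slc25a28, which encodes mitoferrin 2, an iron importer of mitochondria. It lay at 9.41 and 9.84 on the Hes1-null arrays and at 9.07 and 9.04 on the wild-type arrays, without overlap (0.57 ± 0.20, 1.49-fold higher, adjusted p = 0.544 by limma). Its paralog Slc25a37, the mitoferrin 1 of erythroid cells, differed by 0.22 ± 0.16, and the glycine carrier gene Slc25a38, needed for heme synthesis, by 0.20 ± 0.16. These 2 genes were also higher on both Hes1-null arrays, by little more than their SE. Slc25a39, the glutathione carrier gene, overlapped (-0.07 ± 0.18).

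The adenine nucleotide and phosphate carriers had overlapping arrays. Slc25a5 and Slc25a4, which exchange ADP and ATP, differed by 0.07 ± 0.10 and 0.03 ± 0.25, and the phosphate carrier gene Slc25a3 by 0.05 ± 0.11. The interval of the Slc25a5 difference ran between -0.18 and 0.31 (95%). Slc25a5 had 3 probe sets with differences of 0.07, 0.11 and 0.18, and processed copies of this gene may share its probes. Slc25a20, which brings acylcarnitines into mitochondria for fatty acid oxidation, lay at 8.10 and 7.63 on the Hes1-null arrays and at 8.27 and 8.47 on the wild-type arrays. Both Hes1-null arrays were lower, without passing the test (-0.51 ± 0.22, adjusted p = 0.634 by limma). Slc25a46, an outer membrane protein of mitochondrial fission, lay at 9.58 and 10.004 on the Hes1-null arrays and at 9.41 and 9.32 on the wild-type arrays (0.43 ± 0.20). The mitochondrial NAD+ carrier gene Slc25a51 (0.36 ± 0.18), the ATP-magnesium carrier gene Slc25a23 (0.47 ± 0.24) and Slc25a30 (0.32 ± 0.19) were also higher on both Hes1-null arrays, without passing the test.

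Of the 19 metal carriers none had an unadjusted p under 0.05, and the median was -0.04. The closest was Slc39a10, which encodes the zinc importer ZIP10. It lay at 8.08 and 7.28 on the Hes1-null arrays and at 8.40 and 8.40 on the wild-type arrays, with Hes1-null replicate 2 the lowest (-0.72 ± 0.29, unadjusted p = 0.0507). The zinc importer genes Slc39a3 and Slc39a1 lay on opposite sides, at -0.35 ± 0.16 and 0.38 ± 0.20, each without overlap. Slc39a1 had 2 probe sets, with differences of 0.38 and 0.61. The 6 genes of the Slc30 family of zinc exporters among the members lay between -0.21 and 0.17. The copper transporter genes Slc31a1, the high-affinity importer, and Slc31a2 differed by -0.04 ± 0.18 and 0.18 ± 0.18, both with overlap.

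Among the 16 carriers of inorganic ions and protons, Slc9a7 alone had an unadjusted p under 0.05, and the median was -0.08. The sulfate transporter gene Slc26a2, which supplies sulfate for proteoglycans, lay at 8.43 and 8.20 on the Hes1-null arrays and at 8.71 and 8.74 on the wild-type arrays. It was lower without overlap (-0.41 ± 0.17, adjusted p = 0.614 by limma). The phosphate importer genes Slc20a1 and Slc20a2 differed by 0.12 ± 0.17 and -0.12 ± 0.21, and the anion exchanger gene Slc4a2 by -0.20 ± 0.20.

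In the 10 sugar carriers 1 gene had an unadjusted p under 0.05 and the median was 0.04. Slc2a5, which encodes the fructose carrier GLUT5, lay at 6.99 and 6.50 on the Hes1-null arrays and at 7.69 and 7.23 on the wild-type arrays, without overlap (-0.72 ± 0.25, 1.64-fold lower, adjusted p = 0.545 by limma). The myeloid carrier gene Slc2a6 and the urate carrier gene Slc2a9 differed by 0.09 ± 0.20 and -0.01 ± 0.16, both with overlap. Of the sugar-phosphate exchanger family, Slc37a3 differed by 0.30 ± 0.17, and Slc37a4, the glucose-6-phosphate carrier of the endoplasmic reticulum, by 0.11 ± 0.21.

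The 9 carriers of vitamins and heme had a median of 0.00 and 1 gene with an unadjusted p under 0.05. Slc23a2, which encodes the ascorbate importer SVCT2, lay at 8.60 and 9.02 on the Hes1-null arrays and at 8.10 and 8.39 on the wild-type arrays (0.57 ± 0.22, 1.48-fold higher, adjusted p = 0.595 by limma). Both Hes1-null arrays were above both wild-type arrays. Slc46a1, the proton-coupled folate carrier gene, lay at 6.82 and 5.62 on the Hes1-null arrays and at 7.02 and 7.23 on the wild-type arrays. Its difference of -0.90 ± 0.40 was -0.30 without Hes1-null replicate 2. The reduced folate carrier gene Slc19a1 differed by 0.00 ± 0.32, and its 2 probe sets gave 0.00 and -0.12. The lysosomal heme transporter gene Slc48a1 lay at 11.57 and 11.41 on the Hes1-null arrays and at 11.51 and 11.80 on the wild-type arrays, with overlap.

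The smaller classes held little else. Of the equilibrative nucleoside carrier genes, Slc29a1 differed by -0.17 ± 0.18, the lysosomal Slc29a3 by -0.04 ± 0.21 and Slc29a2 by 0.01 ± 0.40, all with overlap. The 5 Slc35a nucleotide sugar carriers among the members lay between -0.27 and 0.00. They include Slc35a1, which carries CMP-sialic acid (-0.27 ± 0.25), Slc35a5 (-0.22 ± 0.16) and Slc35a4 (0.00 ± 0.19). The 11 organic ion carriers had none with an unadjusted p under 0.05. The lysosomal sialic acid exporter gene Slc17a5 lay at 9.71 and 9.27 on the Hes1-null arrays and at 9.90 and 9.88 on the wild-type arrays. It was lower without overlap (-0.40 ± 0.20). Slc10a7 differed by -0.41 ± 0.26, and the carnitine carrier gene Slc22a5 by 0.10 ± 0.25. Slc33a1, which carries acetyl-CoA into the endoplasmic reticulum, differed by -0.33 ± 0.14, without overlap and with close replicates. Slc66a2, outside the classes like Slc14a1, differed by -0.05 ± 0.15.

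At the level threshold, Slc22a13 and Slc43a1 lay just inside, at means of 6.36 and 6.36, and Slc5a5 and Slc4a3 just outside, at 6.33 and 6.32. The brightest probe sets were those of Slc25a5, Slc25a3, Slc48a1, Slc35a4 and Slc31a2, all with overlapping genotypes. Brightness of different probe sets does not rank transcripts.

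The 2 Hes1-null arrays often disagreed on these genes. The median gap between them was 0.41, against 0.11 between the wild-type arrays, beside 0.29 and 0.10 over equally bright genes. The Hes1-null gap exceeded 0.5 for 44 members (31.9%, beside 26.7% of those genes) and the wild-type gap for 9 (6.52%, beside 3.29%). Of the 44, 37 were lower on Hes1-null replicate 2 and 7 were higher. Over equally bright genes the corresponding counts were 1946 and 716. Against the wild-type mean, both Hes1-null arrays were above for 30 members and below for 47. For 50 members replicate 1 was above and replicate 2 below, with 11 the other way. No background count was set beside these, so they are no result about the members. The median over members against the wild-type mean was 0.06 on Hes1-null replicate 1 and -0.21 on replicate 2. Over equally bright genes these medians were 0.05 and -0.06.

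**Figure D3:**
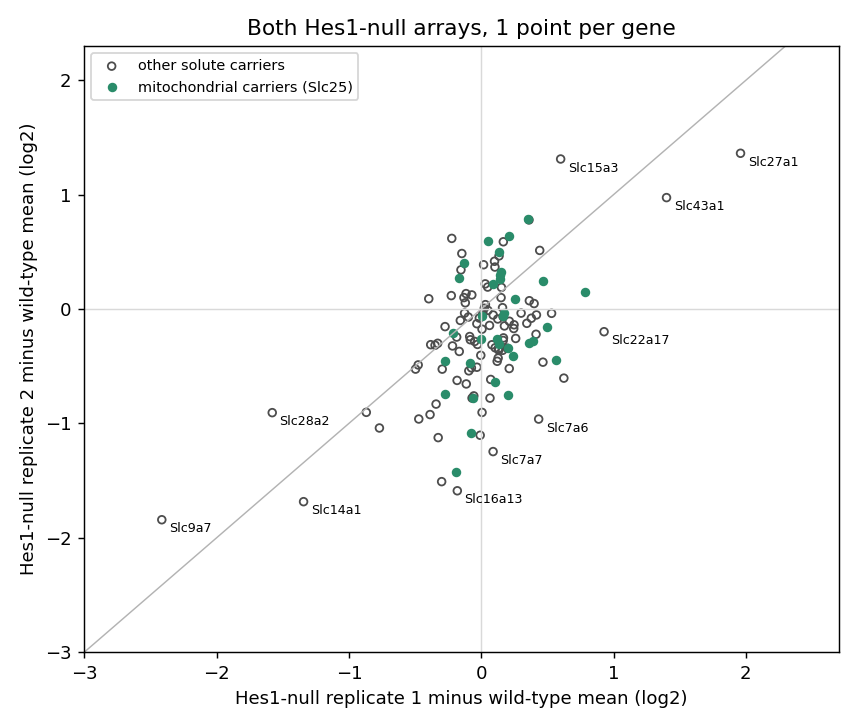
Level on Hes1-null replicate 1 (horizontal axis) and on Hes1-null replicate 2 (vertical axis), each minus the wild-type mean on the log2 scale, with 1 point for each of the 138 genes. The diagonal marks equal values, green points are the 34 mitochondrial carriers, and labelled genes were chosen after their values were seen; many points lie below the diagonal, where replicate 2 is lower.

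The 10 members with the widest Hes1-null gaps, chosen after their values were seen, were all lower on replicate 2. Besides Slc16a13, Slc7a6, Slc7a7 and Slc46a1 they were Slc25a10, Slc29a2, Slc22a17, Slc18a1, Slc25a35 and Slc25a45. The mitochondrial dicarboxylate carrier gene Slc25a10 lay at 8.93 and 7.70 on the Hes1-null arrays and at 9.10 and 9.15 on the wild-type arrays. Slc29a2 lay at 8.26 and 7.03 on the Hes1-null arrays and at 7.67 and 7.60 on the wild-type arrays, with 1 Hes1-null array on each side. Slc22a17, which encodes a receptor for lipocalin 2, lay at 8.07 and 6.94 on the Hes1-null arrays and at 7.04 and 7.24 on the wild-type arrays. With Hes1-null replicate 1 left out, 18 members passed an adjusted p of 0.05 by limma, 4 higher and 14 lower (2.90% and 10.1%, beside 2.56% and 6.36% of equally bright genes), with the lone Hes1-null array assumed to vary like the wild-type pair. With Hes1-null replicate 2 left out, 0 passed, beside 0.110%.

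**Figure D4:**
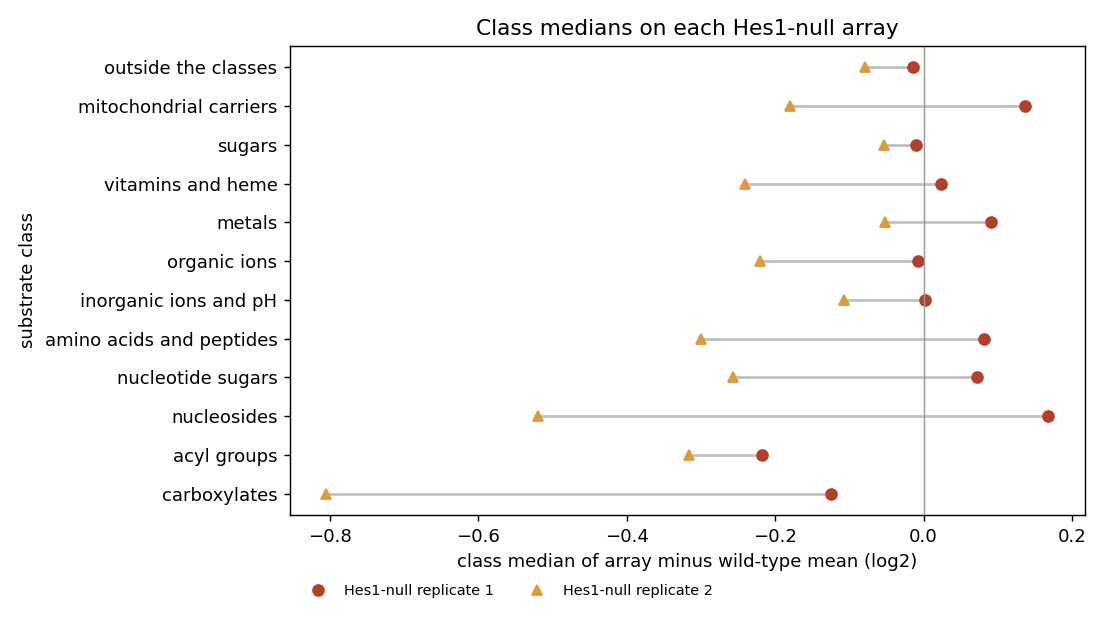
Median over each substrate class of the level on one Hes1-null array minus the wild-type mean (log2, horizontal axis), with circles for replicate 1 and triangles for replicate 2. In every class the triangle lies left of the circle, as for carboxylate carriers at -0.80 and -0.12 and nucleoside carriers at -0.52 and 0.17. Over all genes at or above the level threshold, not drawn, the order was the same, at -0.06 and 0.05.

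Other solute carriers were read beside the members. Of the 169 below the threshold, 0 passed an adjusted p of 0.05 by limma. At an unadjusted p under 0.05, 3 were higher and 6 lower, where 3.51% and 4.78% of all genes were. The median of the 169 was -0.06, and probe sets this dim may be near background, for which the deposited values give no detection call. The smallest p belonged to the bicarbonate carrier gene Slc4a5 (-0.69 ± 0.16), Slc25a53 (0.44 ± 0.13), Slc46a2 (-0.38 ± 0.12) and the amino acid carrier gene Slc38a4 (-0.41 ± 0.14). Of the 16 set aside by name, 1 passed the adjusted threshold and the median was -0.21.

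Transporters known by other names and partners of carriers were also read. The solute carriers with symbols of another form were a chosen list of 40 that may not be complete. Of the 36 measured, 0 passed an adjusted p of 0.05 by limma. At an unadjusted p under 0.05, 1 was higher and 3 were lower, where 3.51% and 4.78% of all genes were. Mpc1, a subunit of the mitochondrial pyruvate carrier, lay at 10.46 and 11.12 on the Hes1-null arrays and at 10.18 and 10.19 on the wild-type arrays, without overlap (0.60 ± 0.24, adjusted p = 0.595 by limma). The organic anion carrier gene Slco3a1 lay at 6.39 and 6.84 on the Hes1-null arrays and at 7.61 and 7.39 on the wild-type arrays (-0.88 ± 0.21, adjusted p = 0.312 by limma). Mfsd1 and the lysophospholipid carrier gene Mfsd2a differed by -0.56 ± 0.19 and -0.37 ± 0.13. Of 23 measured partners and regulators of carriers, 0 passed. Emb, which encodes the monocarboxylate carrier chaperone embigin, differed by 0.29 ± 0.09, and Nfe2l2, a regulator of the antioxidant response, and Cnih4 by -0.58 ± 0.21 and -0.59 ± 0.23.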

How the data were processed

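RNA of 4 samples of leukemic marrow was hybridised to MoGene-1_0-st-v1 arrays. The submitters' processing notes name RMA and Affymetrix Expression Console for the deposited probe set intensities, without versions. Array medians of 65.0 to 67.3 show that the deposited intensities are linear, so log2 of the deposited values was taken with no pseudocount. RMA includes normalization between arrays, so a change in total RNA would not show. Of 35556 probe sets, 21789 had 1 gene symbol, 1621 several and 12146 none listed. The brightest probe set stood for each of 19938 genes (8 members had several), and all 138 members had a RefSeq gene.

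Genotype was the only term of a two-sided limma 3.58.1 fit (R 4.3.3; lmFit, then eBayes with its trend on mean level), adjusted by Benjamini-Hochberg over all genes at 0.05, with 2 residual and 3.41 prior degrees of freedom. The median SE was 0.20 over the members. The script was first tested on simulated data. Members, classes and lists were chosen with earlier results of these data known.

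Named are the 12 members with the smallest p in each direction, the 5 brightest, 2 per class of at least 3 genes, 2 on each side of the threshold, and up to 4 genes of each list outside the members with an unadjusted p under 0.05. Other genes are named to complete a family, or as the text says, after their values were seen. Precision is limited by having 2 arrays per genotype. Alternatives were 12 in number: a filter on level, probe set averaging, another quantile normalization, centring, moderation without trend or robust, array weights, the replicate number as a block, and each of the 4 arrays left out.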

Additional observations from a re-analysis of the deposited data

How the results depend on the processing

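The 13 members with an unadjusted p under 0.05 by limma kept their sign in all 12 alternatives. Most of this was fixed in advance. Leaving out or weighting arrays cannot turn the sign of a gene without overlap. The level filter, the moderation settings and the replicate block leave the difference unchanged, as does probe set averaging for genes with 1 probe set. The sign could turn only with quantile normalization or centring. The count of members called by limma at an adjusted p under 0.05 was 0 in every setting but 2. It was 1 with the replicate number as a block (Slc27a1), and 0 to 18 with each array left out, the 18 being those without Hes1-null replicate 1. The labels do not say what a replicate number shares, and same-numbered arrays deviated together only at r = 0.050 over genes, so the block is no pairing by design; it gave 89 calls over all genes, against 29. The lower count at an unadjusted p was 12 with the replicate block and 11 with array weights, and the sugar median was 0.073 after centring the arrays. With each array left out, the higher count ran from 2 to 22 and the lower count from 4 to 42, and members without overlap from 29 to 69 higher and 42 to 88 lower. Leaving out an array sets 2 arrays against 1, which separates the genotypes more easily for any gene. The counts without overlap could therefore only rise from the 22 higher and 36 lower of the full set. No background share was set beside them, so their rise is no result about the members. The median over members ran from -0.21 to 0.058 with each array left out. The class medians ran from -0.30 to 0.081 (amino acids), -0.80 to -0.12 (carboxylates), -0.11 to 0.0015 (inorganic ions), -0.37 to 0.095 (acyl groups), -0.061 to 0.091 (metals), -0.18 to 0.14 (mitochondrial), -0.52 to 0.17 (nucleosides), -0.26 to 0.072 (nucleotide sugars), -0.22 to -0.0077 (organic ions), -0.053 to 0.043 (sugars) and -0.24 to 0.023 (vitamins and heme). Of 444 values of the 37 named members under the alternatives, 8 changed sign. The level filter, moderation settings and block could not change a sign, so this share is no measure of stability. Leaving out 1 array gave ranges of -0.051 to 0.42 for Slc31a2, -0.038 to 0.17 for Slc25a5, -0.057 to 0.16 for Slc25a3, -0.23 to 0.12 for Slc22a13, -0.26 to 0.26 for Slc35a4 and -0.62 to 0.072 for Slc35a1. In 5 of these genes the sign turned without Hes1-null replicate 1, in Slc35a1 without Hes1-null replicate 2, and in Slc35a4 also without wild-type replicate 2 (-0.027). Slc22a13 gave 0.0049 after quantile normalization. Over all genes, calls numbered 29, against 5 with the dimmer genes left out of the fit, 45 with array weights, 999 and 15 without Hes1-null replicate 1 or 2, and 35 and 6 without wild-type replicate 1 or 2. The cause was not tested.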
